A study of Mus musculus with 4 samples.

Results

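Transcripts of 10 chemokine system genes that draw monocytes and lymphocytes into tissue were followed in mouse livers labelled as Drp1 knockout or wild type. They were the CC chemokines Ccl2, Ccl3, Ccl4, Ccl5 and Ccl6, the CXC chemokines Cxcl9, Cxcl13 and Cxcl16, and the receptors Ccr2 and Cx3cr1. The genes were chosen by symbol, as the gene name given to a probe in the scanner files, and control spots were left out. They were read by 12 probes of 39429, and they make up 10 of the 30439 genes or transcripts on the array. Cxcl9 and Cx3cr1 had 2 probes each and every other gene had 1.

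Liver RNA from male C57BL/6J mice on a high-fat diet (HFD) for 24 weeks was hybridized to 4 one-color arrays, so that each genotype was read once after fasting and once after refeeding. Drp1LiKO mice carry Alb-Cre, a Cre recombinase under the albumin promoter, which is active in hepatocytes, together with Drp1 flox/flox, and the Cont mice were flox/flox littermates that the labels call wild type. Drp1, encoded by Dnm1l, is the dynamin-like GTPase of mitochondrial fission. The series' design text has mice fasted for 17 h and then fed for 4 h, with no group left out, whereas only 2 of the 4 livers are labelled as refed. The labels of the other 2 livers give no feeding state, and these livers are called fasted here because the study describes fasted and refed livers. If they were refed too, the values called fasted and refeeding would not have that meaning, and the labels used here do not settle this. The labels also mark those 2 arrays as raw data of an earlier submission. The number of animals behind an array and any pooling are not given in the sources used here.

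All 4 arrays lay on 1 slide and carried 1 scan time. Between 48.7% and 58.2% of gene spots were well above background, the flag that the scanner software sets for a spot that stands clear of its local background, and the share was higher on the Drp1LiKO array in each feeding state. The knockout could not be read clearly from these arrays. The Dnm1l probe (mm9, chr16:16312331-16312390) was lower in Drp1LiKO by a log2 difference of -0.21 (measurement SE 0.20) after fasting and -0.12 (SE 0.20) after refeeding. Whether that probe lies within the deleted exons was not analysed here. The arrays are therefore described by their labels.

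Chemokines are small secreted proteins that bind G protein-coupled receptors on leukocytes and guide them along concentration gradients into tissue. Ccl2 acts through Ccr2 and brings monocytes out of the marrow and into an injured liver, where they can become macrophages. Ccl3, Ccl4 and Ccl5 attract monocytes, T cells and NK cells, and Ccl3 and Ccl5 are ligands of Ccr1. Ccl6 is a rodent chemokine of myeloid cells. Cxcl9 is induced by interferon-gamma and binds Cxcr3 on activated T cells, Cxcl13 binds Cxcr5 and positions B cells, and Cxcl16 is a membrane-bound chemokine that binds Cxcr6 on NKT and T cells of the liver sinusoids. Cx3cr1 is the receptor of Cx3cl1 and marks monocytes and several tissue macrophages.

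The sequences that report the genes with the largest differences are the array probes, which hold 60 bases each. The first 30 bases of 6 probes are given 5′ to 3′ as the scanner files list them, to show which transcript each value was read from and how the pair of Cx3cr1 probes differ.
Ccl2 probe: tgtaggagtgaccagtgtgacagtgaacta
Ccl3 probe: catgaactgacaaatgtacaatagatgctt
Ccl5 probe: tctcagctgctccgaggctctgcacagcaa
Cxcl13 probe: gatttattgtcttgcattaaaaccagtaac
Cx3cr1 probe, used: cgtgcctagagtgtgtctatcccacttgta
Cx3cr1 probe, dim: caagaatgtcttcatgcattcactgactcc
No run of 15 bases was shared between probes of different members, so that the closely related Ccl3 and Ccl4 were read by unlike sequences. The used probes of Ccr2, Cxcl9, Cxcl16 and Cx3cr1 each shared such a run with 1 gene or transcript outside the members. In mm9 the Ccl2 probe lies at chr11:81850650-81850709, the Ccl3 probe at chr11:83461358-83461417, the Ccl5 probe at chr11:83339296-83339355 and the Cxcl13 probe at chr5:96389861-96389920. The used Cx3cr1 probe lies at chr9:119957811-119957870 and the dim one at chr9:119959018-119959077.

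Promoters of 6 members, Ccl3, Ccl6, Cxcl9, Cxcl13, Ccr2 and Cx3cr1, were found by symbol in a RefSeq table of GRCm38.p6. The 250 bases before the start are shown for 2 members that were at least 2-fold higher in Drp1LiKO in both feeding states and for Cxcl13, which was so in the refed pair. They are written on the gene's strand, and capitals were kept for matches to 4 motifs of inflammatory gene control.
Ccl3, minus strand, chr11:83649379-83649628: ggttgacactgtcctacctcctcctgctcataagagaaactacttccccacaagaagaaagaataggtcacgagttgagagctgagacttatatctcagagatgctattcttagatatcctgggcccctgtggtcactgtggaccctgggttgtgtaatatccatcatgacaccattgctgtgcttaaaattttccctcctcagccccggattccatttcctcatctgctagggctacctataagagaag
Cx3cr1, minus strand, chr9:120068297-120068546: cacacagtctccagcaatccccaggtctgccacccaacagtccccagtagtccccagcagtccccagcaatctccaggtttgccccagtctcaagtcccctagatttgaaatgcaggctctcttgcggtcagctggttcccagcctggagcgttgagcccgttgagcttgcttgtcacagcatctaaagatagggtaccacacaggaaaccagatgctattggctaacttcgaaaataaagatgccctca
Cxcl13, plus strand, chr5:95956689-95956938: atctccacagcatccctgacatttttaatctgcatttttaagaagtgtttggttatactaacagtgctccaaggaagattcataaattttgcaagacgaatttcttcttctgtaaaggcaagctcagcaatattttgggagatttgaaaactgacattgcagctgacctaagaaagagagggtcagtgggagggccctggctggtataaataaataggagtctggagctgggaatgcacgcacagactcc
The motifs were GGG, any 3 bases and TTCC for NF-kB, GAAA, any 2 bases and GAAA for the interferon-stimulated response element, TGANTCA for AP-1 and TGATGNAA for ATF4, each searched on both strands, and the NF-kB and interferon-stimulated patterns can overlap in the letters GAA. No match was found in any of the 6 member promoters, so no letter is in capitals. Among all 32851 promoters of the table, 4.65% held the NF-kB pattern, 2.98% the interferon-stimulated pattern, 6.75% the AP-1 pattern and 3.45% the ATF4 pattern in the same window. The result says only that these exact letters are not in the window.

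The first comparison asked whether these transcripts differed between Drp1LiKO and Cont livers in each feeding state. At 2-fold, Ccl3, Ccl5 and Cx3cr1 were higher in Drp1LiKO in both feeding states, Ccl2, Ccl4 and Ccr2 in the fasted pair alone and Ccl6 in the refed pair alone, the Ccr2 values being within 2 SE of 0 in both. The CXC chemokines Cxcl9 and Cxcl16 lay close to the control level, and Cxcl13 differed by feeding state. Values are log2 signals with the array's own 75th percentile taken as 0. They are compared between arrays for 1 probe and not between probes, except in the summed levels of marker lists. With 1 array per group no test exists within a feeding state. The SE given with a difference is the measurement SE of the scanner's error model, which leaves out differences between animals. A gene was counted as different when the signals differed at least 2-fold and the brighter one was well above background.

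After fasting 6 of the 10 members were at least 2-fold higher in Drp1LiKO, against 8.06% of the 18040 genes with signal on either array of the pair. They were Ccl2, Ccl3, Ccl4, Ccl5, Ccr2 and Cx3cr1, and no member was 2-fold lower, against 5.19% of genes. In the refed pair 5 of 10 were at least 2-fold higher, against 8.05% of 17446 genes, namely Ccl3, Ccl5, Ccl6, Cxcl13 and Cx3cr1, and none was lower, against 6.33%. The members' median log2 difference was 1.22 after fasting and 0.90 after refeeding, and over all genes it was -0.08 and -0.04. With normexp background correction, which adds an offset of 50 to every signal, Ccl2 and Ccl5 were the members still 2-fold higher after fasting and Ccl5, Ccl6 and Cxcl13 after refeeding, with medians of 0.64 and 0.42. Under it 358 genes were higher and 569 lower after fasting, against 1454 and 936 as reported, and 363 higher and 709 lower after refeeding, against 1404 and 1105. Among the 8 members with both signals well above background, 4 were at least 2-fold higher in each pair, against 3.03% of such genes after fasting and 3.17% after refeeding, and none was lower, against 3.68% and 4.39%. The members had been chosen with earlier results of these arrays known, so the counts are a description.

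Ccl2, the main monocyte attractant, had a log2 level of -1.43 in Cont and 0.08 in Drp1LiKO after fasting, and of -0.53 in Cont and 0.20 in Drp1LiKO after refeeding. The difference was 1.504 (SE 0.21), or 2.84-fold, in the fasted pair and 0.74 (SE 0.21), or 1.67-fold, in the refed pair. The Ccl2 probe is printed 10 times on each array, and the SD of its log2 signals lay between 0.05 and 0.07. On the fasted Cont array 1 of the 10 spots, with a signal of 381 against 158 to 186 in the others, was flagged as an outlier by the scanner software and left out.

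**Figure D1:**
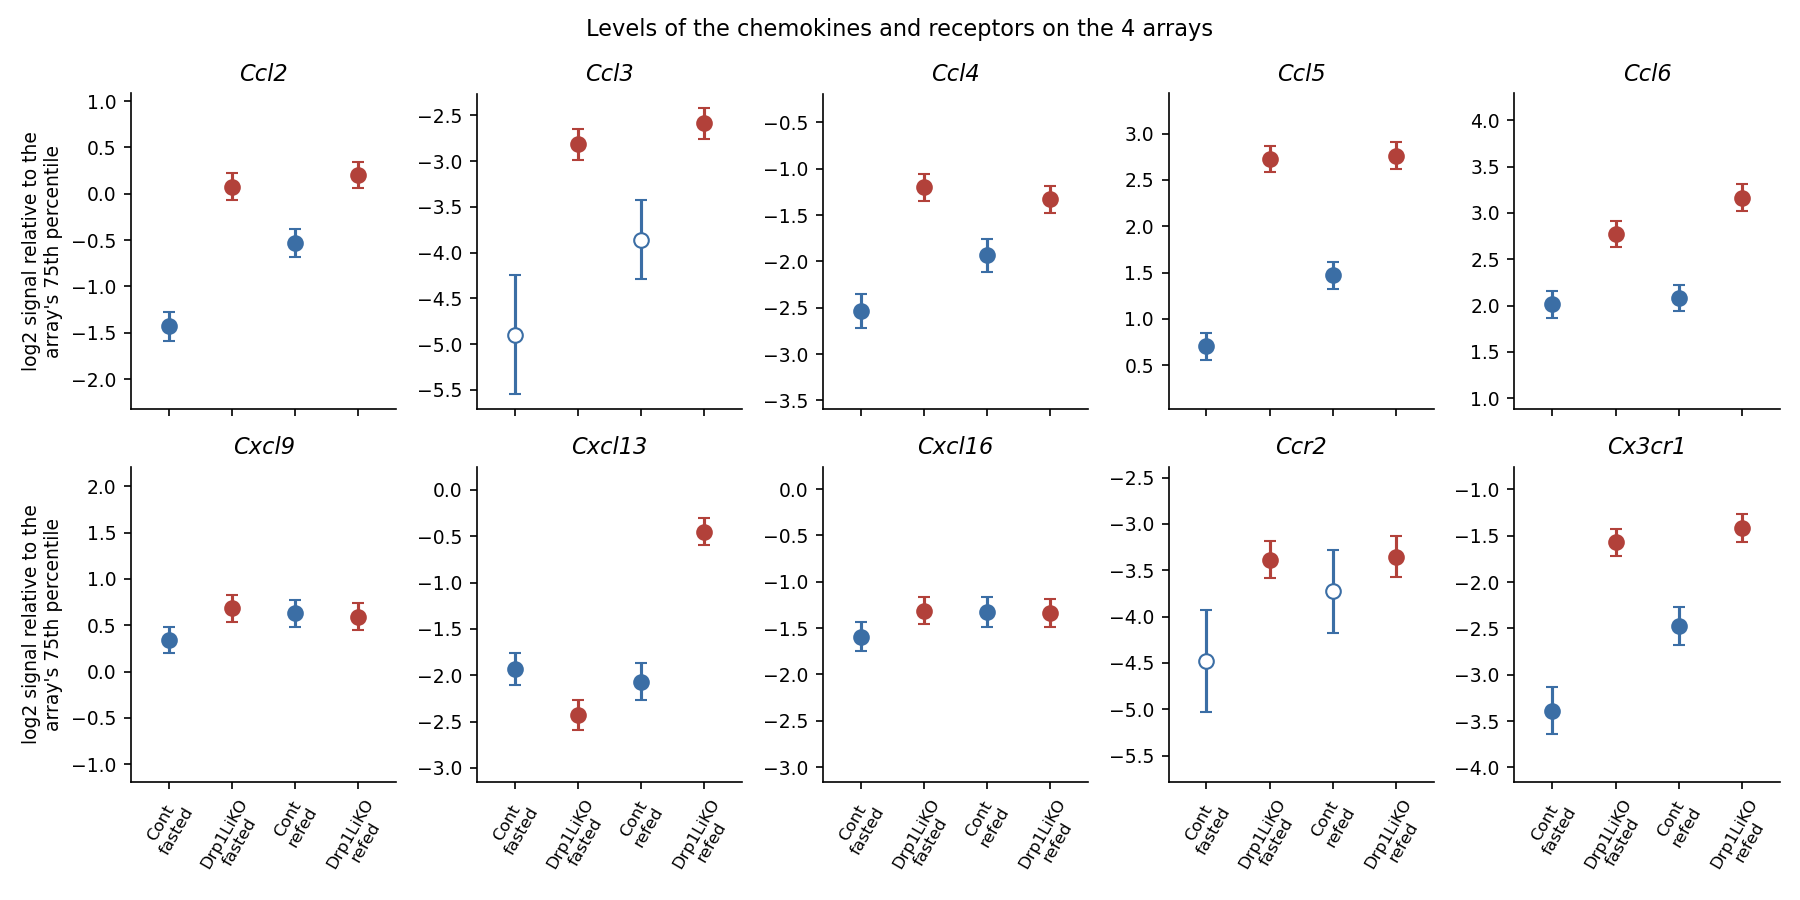
Log2 signal relative to the array's 75th percentile for each of the 10 members on the 4 arrays, with the measurement SE as bars; blue is Cont, red is Drp1LiKO, and open circles are signals not well above background. Each panel has its own axis because levels of different probes are not comparable. Cxcl13 is high on the refed Drp1LiKO array alone.

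Ccl5, an attractant of T cells and monocytes, had the largest fasted difference among the 8 members well above background on every array. Its level was 0.70 in Cont and 2.73 in Drp1LiKO after fasting, and 1.47 and 2.76 after refeeding. The difference was 2.02 (SE 0.20), or 4.06-fold, after fasting and 1.29 (SE 0.20), or 2.45-fold, after refeeding. In the fasted pair 465 of 18040 genes had a higher difference than Ccl5.

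Ccl4, a monocyte and T cell attractant, stood at -2.54 in Cont and -1.20 in Drp1LiKO after fasting and at -1.93 and -1.33 after refeeding. The difference was 1.34 (SE 0.24), or 2.53-fold, after fasting and 0.60 (SE 0.23), or 1.52-fold, after refeeding. With normexp the Ccl4 values were 0.83 and 0.30. Ccl3, the neighbouring gene and a ligand of Ccr1, was well above background on both Drp1LiKO arrays and on neither Cont array. Its level was -4.89 in Cont and -2.82 in Drp1LiKO after fasting, and -3.86 and -2.59 after refeeding. Read against the lowest signal well above background on the Cont array, or its own where that was higher, Ccl3 was at least 2.39-fold higher after fasting and at least 1.94-fold higher after refeeding. With normexp the Ccl3 differences were 0.46 and 0.064, so neither call was kept. With every dim signal set at that bound, 5 members stayed at least 2-fold higher in the fasted pair, against 4.53% of genes, and 4 in the refed pair, against 4.03%.

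Ccl6, the myeloid chemokine encoded between Ccl5 and Ccl3, was the member of the CC group with the larger difference after refeeding. Its level was 2.01 in Cont and 2.77 in Drp1LiKO after fasting, and 2.08 and 3.16 after refeeding. The difference was 0.76 (SE 0.20), or 1.69-fold, and 1.08 (SE 0.20), or 2.12-fold. Both Cont arrays lay within 0.07 of each other.

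Among the CXC chemokines, Cxcl9 had levels of 0.34 in Cont and 0.69 in Drp1LiKO after fasting and of 0.63 and 0.59 after refeeding. The Cxcl9 differences of 0.34 (SE 0.20) and -0.03 (SE 0.20) were within 2 measurement SE of 0, and a second Cxcl9 probe gave 0.38 (SE 0.21) and 0.08 (SE 0.22). Cxcl16 stood at -1.59 in Cont and -1.31 in Drp1LiKO after fasting and at -1.32 and -1.34 after refeeding. Its differences, 0.28 (SE 0.22) and -0.02 (SE 0.22), were also within 2 SE of 0. The sign of the refed difference turned in 3 of the 8 alternatives for Cxcl9 and in 3 of 8 for Cxcl16. Some alternatives could not change these values, and quantile normalization and the authors' values are nearly the same alternative. Both genes were well above background on every array, so the background filter and the bound left them as they were. The median over probes could not change Cxcl16, which has 1 probe.

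Cxcl13, the B cell chemokine, had a pattern of its own among the members. Its level was -1.93 in Cont, -2.43 in Drp1LiKO and -2.07 in refed Cont, and it was -0.45 in refed Drp1LiKO. Cxcl13 was lower in Drp1LiKO by a difference of -0.50 (SE 0.24) after fasting and higher by 1.62 (SE 0.25), or 3.08-fold, after refeeding. All 4 signals were well above background, and with normexp the values were -0.42 and 1.08. The refed Drp1LiKO array was the high one, and the other 3 arrays lay within 0.50 of each other.

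The receptor Ccr2 was dim throughout. Its level was -4.48 in Cont and -3.39 in Drp1LiKO after fasting, and -3.73 and -3.35 after refeeding, and it was well above background on the Drp1LiKO arrays and not on the Cont arrays. Ccr2 was at least 1.61-fold higher after fasting and at least 1.15-fold higher after refeeding. The measured differences of 1.09 (SE 0.59) and 0.37 (SE 0.50) were within 2 SE of 0, and with normexp they were 0.095 and -0.21. Cx3cr1 cleared background on every array, at -3.39 in Cont and -1.57 in Drp1LiKO after fasting and at -2.47 and -1.42 after refeeding. The difference was 1.82 (SE 0.29), or 3.53-fold, after fasting and 1.06 (SE 0.25), or 2.08-fold, after refeeding, and with normexp it was 0.94 and 0.53. The dim Cx3cr1 probe was well above background on the refed Drp1LiKO array alone and gave differences of 1.19 (SE 1.49) and 0.61 (SE 0.72). In a whole liver, more cells of a type and more RNA per cell cannot be told apart.

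**Figure D2:**
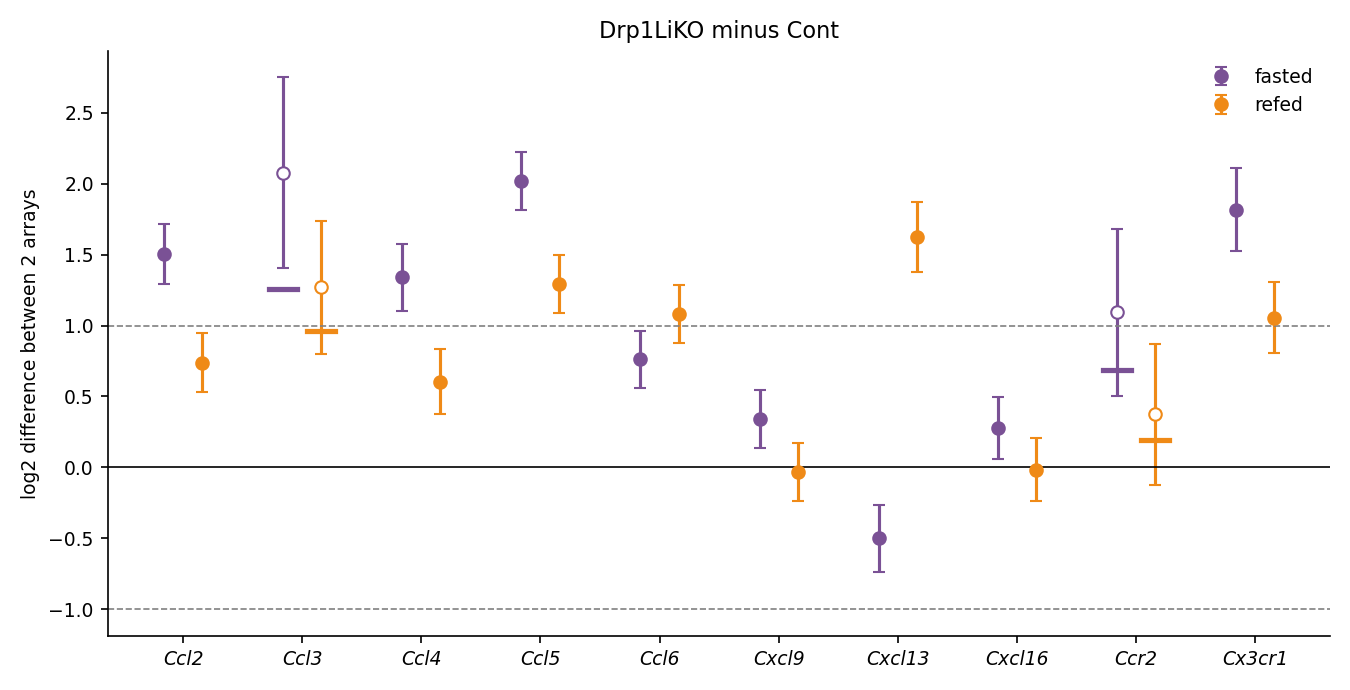
Log2 difference of Drp1LiKO minus Cont for each member, fasted pair in purple and refed pair in orange, with the measurement SE as bars; dashed lines mark 2-fold. Open circles have a Cont signal not well above background, and the short bar below them is the lower bound. Purple points are above orange ones for Ccl2, Ccl3, Ccl4, Ccl5 and Cx3cr1, and Ccl6 and Cxcl13 have the reverse order.

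With 1 array per group, a test has to pool arrays over feeding states or genotypes, and all 4 arrays were put in an additive limma model of genotype and feeding state, which leaves 1 residual degree of freedom and counts any interaction as error. Over the 16744 genes tested, 0% passed a Benjamini-Hochberg adjusted p under 0.05 for genotype, where the smallest adjusted p was 0.0614, and 4746 genes, or 28.3%, had an unadjusted p under 0.05. No member passed, and without the feeding term, with 2 residual degrees of freedom, 1 gene and 0 members passed in limma. By limma, the genotype effect was 1.66 (SE 0.24, adjusted p = 0.102) for Ccl5 and 1.67 (SE 0.26, adjusted p = 0.104) for Ccl3. It was 1.44 (SE 0.25, adjusted p = 0.106) for Cx3cr1 and 0.92 (SE 0.16, adjusted p = 0.106) for Ccl6 in the same limma fit. Over all members, 7 of 10 had an unadjusted limma p under 0.05 for genotype. Ccl3 and Ccr2 were among these, although both entered the fit through the Drp1LiKO arrays alone. With normexp their limma genotype effects were 0.26 and -0.056. For feeding state, 0% of genes passed in limma, the smallest adjusted p was 0.169, 26.4% had an unadjusted p under 0.05, and 0 of the 10 members did. When the limma fit was limited to the 14447 genes that cleared background on every array, 1214 genes passed for genotype, and 4 of the 8 members in it, Ccl2, Ccl5, Ccl6 and Cx3cr1, were among them with adjusted p between 0.0355 and 0.0487.

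The second comparison asked how refeeding changed the same transcripts in each genotype. It shares its arrays with the genotype comparison, so the values are set side by side and not counted as a second result. In Cont, 0 of the 8 members with a signal well above background were 2-fold higher after refeeding, against 4.47% of 16437 genes, and none was 2-fold lower, against 5.83%. The refed Cont array was still above the fasted one for Ccl2 by 0.89 (SE 0.22), for Cx3cr1 by 0.91 (SE 0.32), for Ccl5 by 0.77 (SE 0.20) and for Ccl4 by 0.60 (SE 0.26), each over 2 measurement SE. Ccl6, Cxcl9, Cxcl13 and Cxcl16 differed by -0.14 to 0.29 in Cont, within 2 SE of 0.

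In Drp1LiKO livers 1 of the 10 members, Cxcl13, was at least 2-fold higher after refeeding, against 5.61% of 18329 genes, and none was 2-fold lower, against 7.15%. Cxcl13 differed by 1.98 (SE 0.22), or 3.95-fold. The other 9 members differed by -0.13 to 0.39, all within 2 SE of 0. Ccl2, Ccl4, Ccl5 and Cx3cr1, which were higher in the refed than in the fasted Cont liver, gave 0.13, -0.13, 0.04 and 0.15 between the Drp1LiKO livers.

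**Figure D3:**
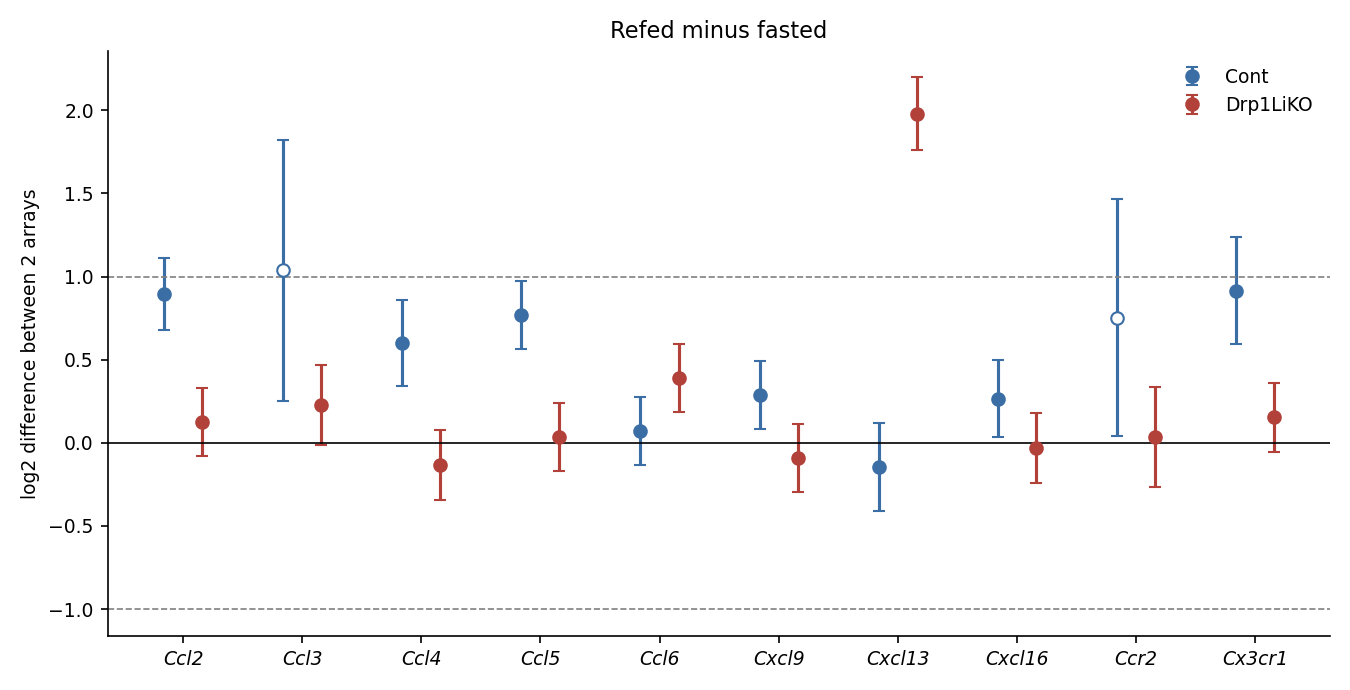
Log2 difference of refed minus fasted for each member, Cont in blue and Drp1LiKO in red, with the measurement SE as bars; dashed lines mark 2-fold and open circles are pairs in which neither signal was well above background. Ccl2, Ccl4, Ccl5 and Cx3cr1 are above 0 in Cont and near 0 in Drp1LiKO, and Cxcl13 is at 1.98 in Drp1LiKO.

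The refed genotype difference minus the fasted one was below 0 for 8 of the 10 members, against 45.7% of the 16744 genes that cleared background on 2 or more arrays. It was -0.77 (SE 0.30) for Ccl2, -0.74 (SE 0.33) for Ccl4 and -0.73 (SE 0.29) for Ccl5, which each exceeded 2 measurement SE, and -0.76 (SE 0.38) for Cx3cr1, which did not. So 3 members were below 0 by over 2 SE, against 6.25% of genes, and 1, Cxcl13, was above 0 by over 2 SE, against 5.9%. Ccl6 gave 0.32 (SE 0.29) and Cxcl13 gave 2.12 (SE 0.34). No replicate exists from which this interaction could be tested.

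The partners of the members were read next, as the matching receptors and ligands. Ccr1 was never well above background. Cxcr3, the receptor of Cxcl9, was higher in Drp1LiKO by 0.69 (SE 0.27) and 0.71 (SE 0.26). Cxcr6, the receptor of Cxcl16, differed by 0.30 (SE 0.22) and 0.63 (SE 0.23), and Cxcr5, the receptor of Cxcl13, was well above background on the refed Drp1LiKO array alone. Cx3cl1, the ligand of Cx3cr1, was well above background on the Drp1LiKO arrays alone and was at least 2.08-fold higher after fasting and at least 1.64-fold higher after refeeding.

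The other CC ligands differed in direction. Among the 6 that were well above background on both arrays of a pair, the median difference was -0.66 after fasting and -0.64 after refeeding, while that over all genes so measured was -0.12 and -0.08. This count leaves out ligands that were dim in Cont and bright in Drp1LiKO. Over the 9 with signal on either array the fasted median was 0.042, with 2 at least 2-fold higher and 1 lower, and over 11 the refed median was 0.80, with 5 higher and none lower. With dim signals at their bound these medians were -0.35 and -0.36, with 1 ligand higher in each pair, so the sign of the list's median depends on how dim signals are read. Ccl7, a ligand of Ccr2 encoded beside Ccl2, was not well above background in Cont and was at least 3.46-fold higher in Drp1LiKO after fasting and at least 3.89-fold higher after refeeding. Ccl27a, an epithelial chemokine, was lower by -1.08 (SE 0.20) and -0.88 (SE 0.20). Ccl17, a T cell attractant, was well above background on the Drp1LiKO arrays alone and at least 1.38-fold higher after fasting, with no bound above 1 after refeeding. Ccl24 and Ccl25 were lower as well, by -0.74 and -0.63 in the fasted pair.

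Of the other CXC, C and CX3C ligands, 7 were measured on both arrays of the fasted pair, with 1 at least 2-fold higher and 1 lower, and 6 on both of the refed pair, with 2 higher and none lower. Cxcl10, which like Cxcl9 is induced by interferons and binds Cxcr3, stood at 0.68 in Cont and 2.76 in Drp1LiKO after fasting and at 0.92 and 3.81 after refeeding. The Cxcl10 differences were 2.08 (SE 0.20) and 2.89 (SE 0.20), beside 0.34 and -0.03 for Cxcl9. Cxcl1, a neutrophil attractant, differed by -1.19 (SE 0.21) in the fasted pair and by 1.19 (SE 0.21) in the refed pair. Xcl1, a ligand made by NK and T cells, was well above background on the Drp1LiKO arrays alone, with bounds of 1.11-fold and 1.66-fold.

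Among the other chemokine receptors, 8 were measured on both arrays of the fasted pair, with 2 at least 2-fold higher, and 6 on both of the refed pair, with none. Among the 2 higher after fasting was Ccr7, the homing receptor of mature dendritic cells and naive T cells, which differed by 1.57 (SE 0.32) after fasting and 0.59 (SE 0.30) after refeeding. Of the 5 proteins listed for shedding of Cx3cl1 and Cxcl16, the protease gene Adam10 differed by 0.09 (SE 0.20) and 0.41 (SE 0.21). The related Adam8 was higher by 2.09 (SE 0.35) in the fasted pair and by 0.39 (SE 0.29) in the refed pair.

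The cytokines and transcription factors that induce chemokines were measured on both arrays for 13 genes in the fasted pair and 12 in the refed pair. At least 2-fold higher were 4 and 2 of them, and none was lower. Tnfaip3, an NF-kB target and inhibitor, was higher by 1.504 (SE 0.23) and 1.56 (SE 0.24), and Irf7, an interferon-induced regulator, by 1.68 (SE 0.20) and 1.90 (SE 0.20). Nfkb1, the gene of another NF-kB subunit, was higher by 1.22 (SE 0.36) and 1.08 (SE 0.46), with a refed Cont signal not well above background. Rela, the main transactivating NF-kB subunit, differed by 0.13 (SE 0.20) and -0.03 (SE 0.20), and its inhibitor Nfkbia by -0.33 (SE 0.20) and -0.48 (SE 0.20). The cytokine gene Ifng, whose product induces Cxcl9, and Il6 were never well above background.

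**Figure D4:**
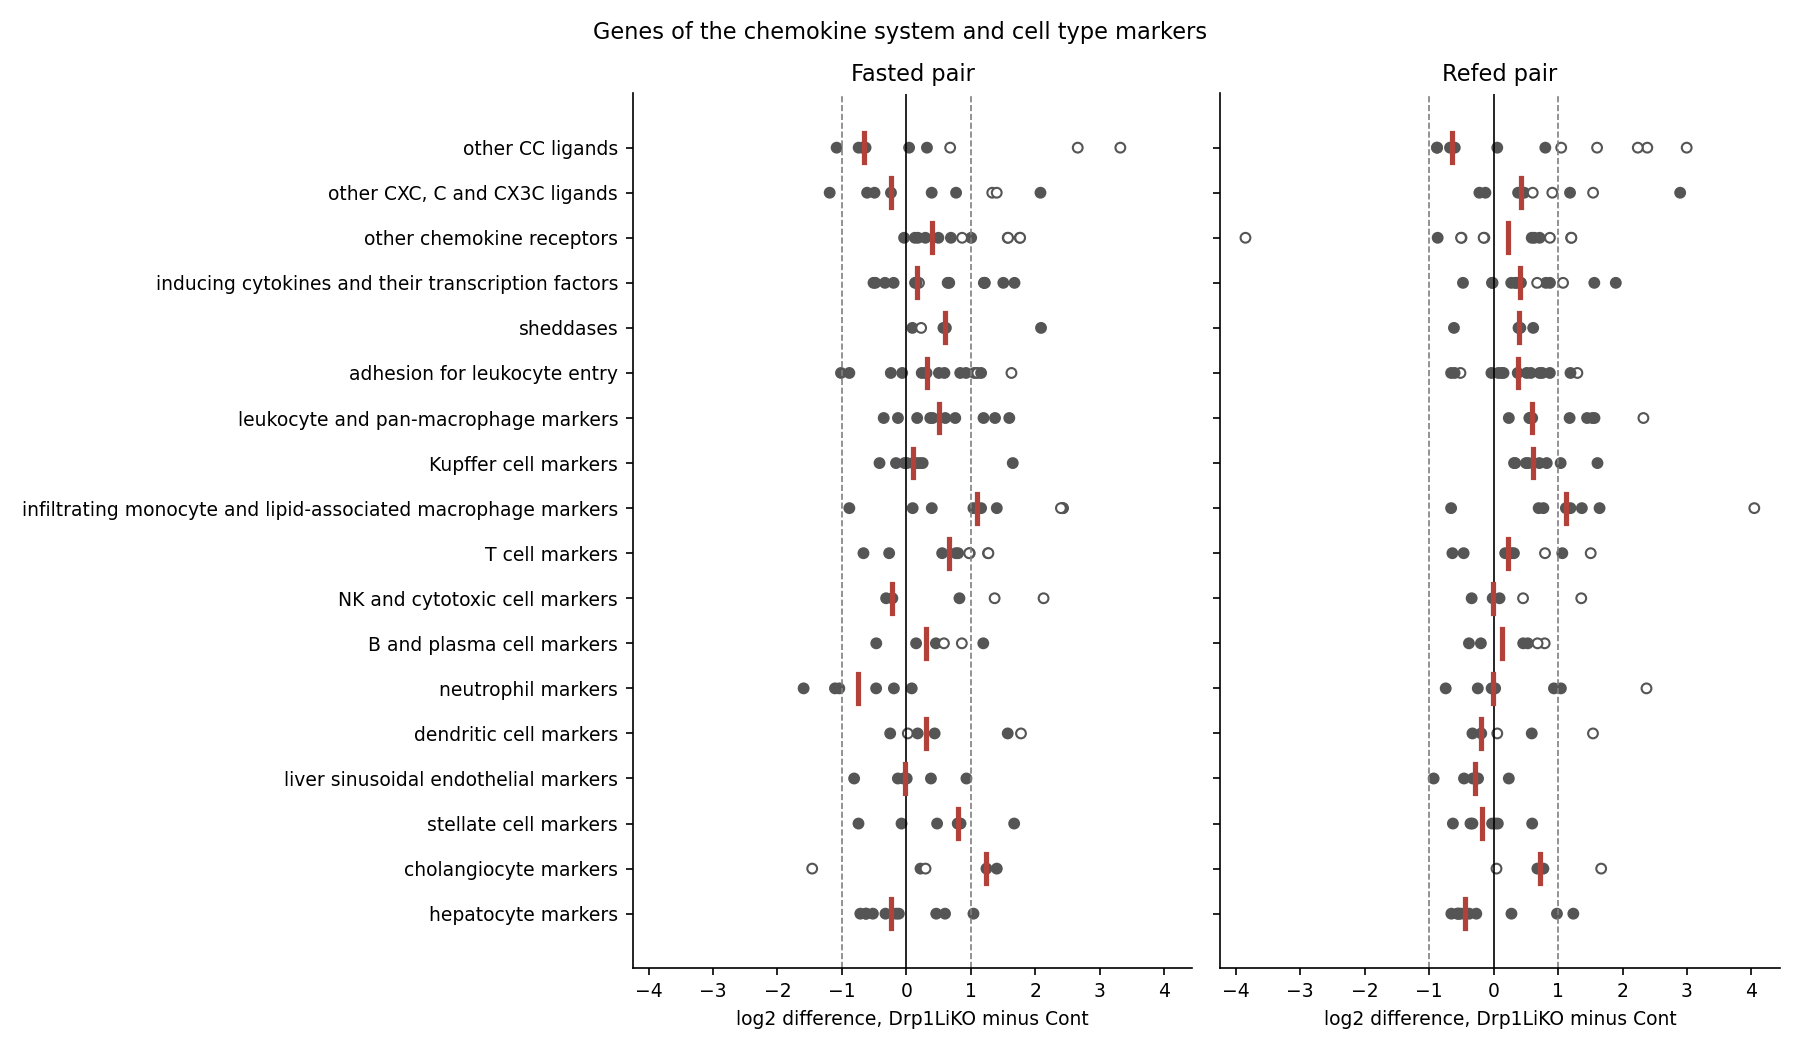
Log2 difference of Drp1LiKO minus Cont for genes of the chemokine system and for cell type markers, fasted pair on the left and refed pair on the right. Each circle is 1 gene with a signal well above background on either array, open where it was so on 1 array only, red bars are medians over the filled circles, and dashed lines mark 2-fold; the monocyte and lipid-associated macrophage list has medians of 1.1 and 1.12, and the hepatocyte list of -0.24, which turns to 0.14 under quantile normalization, and -0.44.

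Markers of the cells that could carry these transcripts are given beside them. Some lists share genes, so their counts are not separate. Itgam, Itgax and Spp1 are in the monocyte and lipid-associated macrophage list and again in the adhesion or cholangiocyte list. Ccr7 is in the receptor and dendritic cell lists. Among all genes measured on both arrays, 3.03% were at least 2-fold higher after fasting and 3.17% after refeeding. At least 2-fold lower were 3.68% and 4.39%. The list of infiltrating monocyte and lipid-associated macrophage genes, 9 of 10 on the array, was measured on both arrays for 8 genes after fasting, with 5 at least 2-fold higher and a median of 1.1, and for 7 genes after refeeding, with 4 higher and a median of 1.12. Trem2, a lipid receptor of such macrophages, was higher by 2.43 (SE 0.21) and 1.64 (SE 0.21), and the integrin gene Itgax by 1.16 (SE 0.25) and 1.19 (SE 0.24). Gpnmb, a glycoprotein of lipid-laden macrophages, was higher by 2.43 (SE 0.28) after fasting and at least 3.65-fold higher after refeeding, where the Cont signal was dim. Itgam, an integrin of myeloid cells in the same list, was lower by -0.88 (SE 0.20) and -0.66 (SE 0.20). Summed over its probes, the level of the list was 1145% of the 75th percentile in Cont and 1341% in Drp1LiKO after fasting, and 929% and 1546% after refeeding. Such a sum is weighted by probe brightness, and Itgam alone made up 57.2% of it on the fasted Cont array. Without Itgam it was 490% and 986% after fasting and 535% and 1297% after refeeding. The part of these cells in the chemokine differences was not tested.

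Of the 10 general leukocyte and macrophage markers, all with signal on either array, 3 were at least 2-fold higher after fasting and 5 after refeeding. The shares over all genes by this rule were 8.06% and 8.05%. Among those measured on both arrays, 3 of 10 were higher after fasting and 4 of 9 after refeeding. Lyz2, a lysozyme of myeloid cells, was higher by 1.38 (SE 0.21) and 1.53 (SE 0.21) and the lipopolysaccharide co-receptor Cd14 by 1.60 (SE 0.21) and 1.56 (SE 0.22). Ptprc, which encodes CD45, was higher by 1.20 (SE 0.31) after fasting and at least 2.33-fold higher after refeeding. Their summed level was 3840% in Cont and 4067% in Drp1LiKO after fasting, and 4037% and 6152% after refeeding, and without Csf1r, the brightest probe, it was 1528% and 2255%, and 1723% and 3427%. Kupffer cell markers had medians of 0.10 and 0.61 over the 9 genes measured on both arrays, with Clec4f, which defines Kupffer cells in mice, at -0.16 (SE 0.20) and 0.34 (SE 0.20) and Timd4 at -0.42 (SE 0.21) and 0.32 (SE 0.22). Marco, a scavenger receptor in that list, was higher by 1.65 (SE 0.20) and 1.61 (SE 0.20), and Cd163 was never well above background. The summed Kupffer list stood at 8908% and 10787% after fasting and at 10098% and 18431% after refeeding, of which Cd5l, the brightest probe, made up 37.1% to 39.1%. Their part in the chemokine differences was not tested either.

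Lymphocyte markers gave mixed values. Cd3d, a chain of the T cell receptor complex, was higher by 0.98 (SE 0.26) and 1.07 (SE 0.23), whereas Cd3e of the same complex was lower by -0.67 (SE 0.20) and -0.64 (SE 0.20). Of 6 T cell markers measured on both arrays of each pair, 0 were 2-fold different after fasting and 1 was higher after refeeding, with medians of 0.66 and 0.23. Cd2 differed by 0.80 (SE 0.25) and 0.28 (SE 0.23), Cd5 by 0.77 (SE 0.36) and 0.18 (SE 0.32) and Lck by 0.56 (SE 0.22) and 0.31 (SE 0.22). Cd4 differed by -0.27 (SE 0.20) and -0.47 (SE 0.20). Among NK and cytotoxic cell genes, Ncr1 was never well above background, none of the 3 measured on both arrays was 2-fold different in either pair, and Gzma and Nkg7 differed by 0.82 (SE 0.22) and -0.31 (SE 0.20) after fasting. Klrd1, an NK cell receptor of the same list, was well above background on the Drp1LiKO arrays alone, with bounds of 1.94-fold and 1.09-fold. So was Gzmb of that list, at least 2.15-fold higher after fasting and at least 1.27-fold higher after refeeding. Of 6 B and plasma cell markers with signal, 1 was at least 2-fold higher after fasting and none after refeeding, with medians of 0.52 and 0.49, or 0.26 and 0.43 with dim signals at their bound. Jchain, the joining chain of secreted antibodies, differed by 1.19 (SE 0.22) and 0.53 (SE 0.22), and Cd79b, of the B cell receptor, by 0.46 (SE 0.22) and 0.46 (SE 0.21). The partner of Cd79b, Cd79a, beside the B cell chemokine Cxcl13, differed by 0.15 (SE 0.27) and -0.20 (SE 0.24), and Pax5 was never well above background. The summed B and plasma cell list was 149% and 186% after fasting and 211% and 244% after refeeding, and without Cd22, the brightest probe, 80.03% and 135%, and 148% and 196%.

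Of 6 neutrophil markers measured on both arrays of each pair, 3 were at least 2-fold lower after fasting and 1 was higher after refeeding. S100a8 was lower by -1.04 (SE 0.21) after fasting and higher by 0.94 (SE 0.21) after refeeding, and S100a9 by -1.11 (SE 0.20) and 1.04 (SE 0.20), while Ly6g, which marks mature neutrophils, gave 0.08 (SE 0.21) and 0.02 (SE 0.21). Retnlg was lower in both pairs, by -1.59 (SE 0.21) and -0.74 (SE 0.23). Csf3r differed by -0.47 (SE 0.20) and -0.03 (SE 0.20) and Elane by -0.19 (SE 0.20) and -0.25 (SE 0.20). Medians of the 6 neutrophil markers were -0.75 and -0.0038. Among the other cells of the liver, no marker of sinusoidal endothelium was 2-fold different in either pair, of 6 measured. Of 7 stellate cell markers 1 was higher after fasting, and of 6 none after refeeding. Of 4 dendritic cell markers 1, Ccr7, was higher after fasting and of 3 none after refeeding. Of 3 cholangiocyte markers 2 were higher after fasting, Sox9 by 1.24 (SE 0.32) and Spp1 by 1.40 (SE 0.22), while Krt19 differed by 0.22 (SE 0.31). Of 2 measured on both refed arrays none was 2-fold different. Over the 5 with signal on either fasted array the median was 0.30, with 2 higher and 1 lower. The lower one was Cftr, dim in Drp1LiKO and at least 2.21-fold lower. Over 4 the refed median was 0.73, with 1 higher. Hepatocyte markers had medians of -0.24 and -0.44 over 10 genes, with albumin at -0.52 (SE 0.20) and -0.55 (SE 0.20). The list went both ways, with 1 gene at least 2-fold higher and none lower in each pair. Tat, an enzyme of tyrosine breakdown, was higher by 1.04 (SE 0.20) and 0.98 (SE 0.20), and Cps1, of the urea cycle, by 0.60 (SE 0.20) and 1.24 (SE 0.20). Under quantile normalization the hepatocyte medians were 0.14 and -0.11 and albumin stood at 0.065 and -0.088, so the fasted values changed sign with the scaling.

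Leukocytes enter the liver through adhesion molecules, of which 13 were measured on both arrays of each pair. After fasting 2 were at least 2-fold higher and 1 lower, and after refeeding 1, Itgax, was higher. Vcam1, an endothelial ligand of monocyte and lymphocyte integrins, differed by 1.05 (SE 0.21) in the fasted pair and 0.37 (SE 0.21) in the refed pair.

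The CC chemokine genes lie in groups on chromosome 11. The probes of Ccl5, Ccl6, Ccl3 and Ccl4 span 139 kb, and the neighbours on both sides were read for comparison. Ccl9, between Ccl5 and Ccl6, differed by 0.04 (SE 0.20) after fasting and 0.80 (SE 0.20) after refeeding. Taf15, a gene of RNA processing just before Ccl5, differed by 0.80 (SE 0.21) and 0.06 (SE 0.21). On the other side of Ccl4, Wfdc17 gave -0.12 (SE 0.20) and 0.92 (SE 0.20), and Wfdc21 gave -1.31 (SE 0.20) and -0.42 (SE 0.20).

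**Figure D5:**
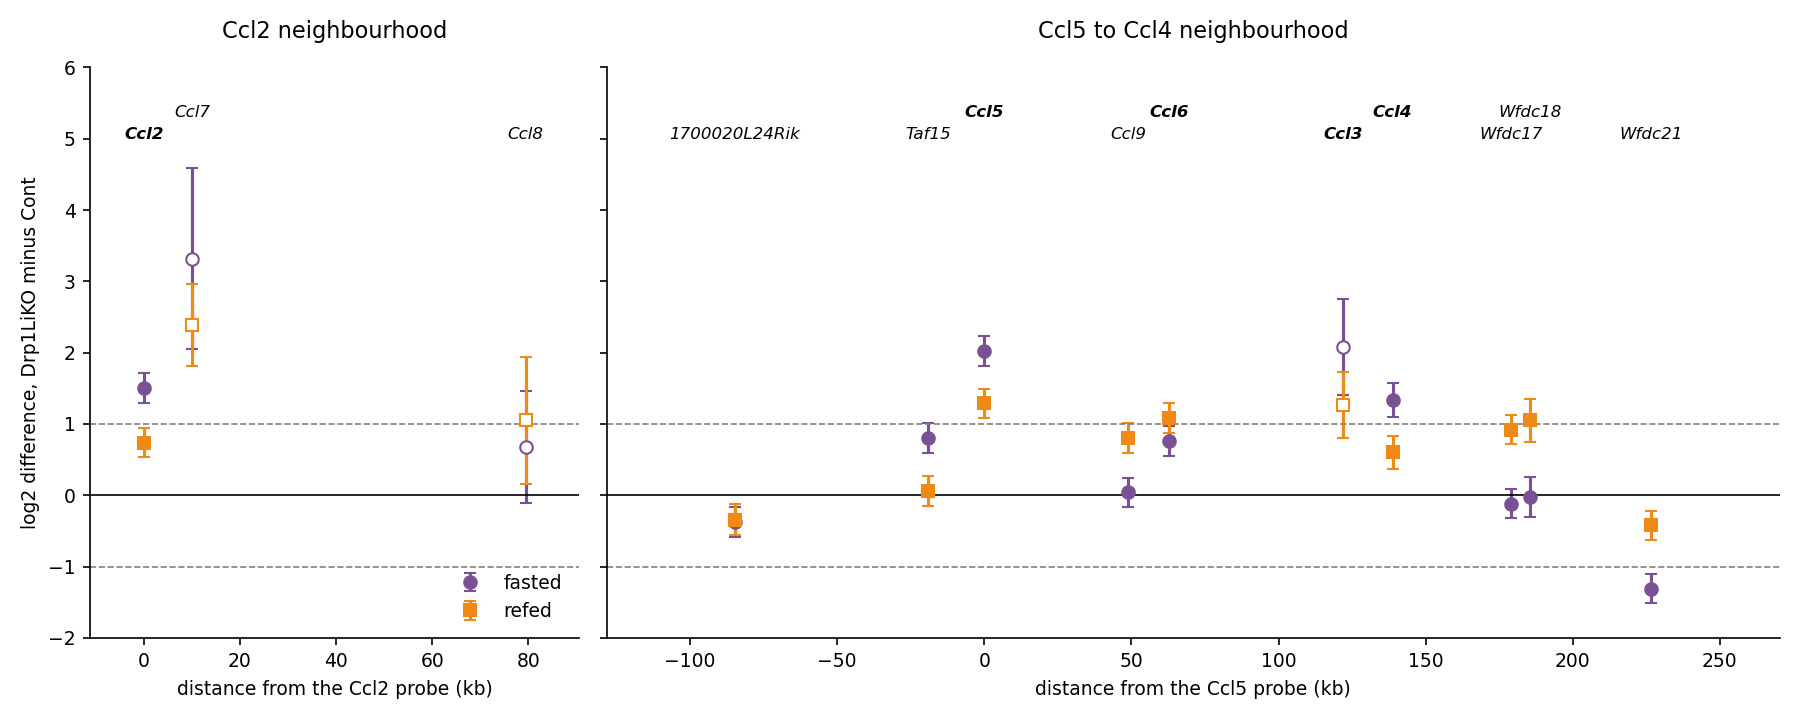
Log2 difference of Drp1LiKO minus Cont against distance in kb from the Ccl2 probe (left) and from the Ccl5 probe (right) for genes that cleared background on 2 or more arrays, fasted pair as purple circles and refed pair as orange squares, with the measurement SE as bars. Members are in bold, open symbols are genes that did so on fewer than 4 arrays, and dashed lines mark 2-fold; Ccl9 lies at 0.04 and 0.80 between Ccl5 and Ccl6.

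Genes with the most similar pattern were found for the 8 members that cleared background on every array, as the smallest Euclidean distance over the 4 levels after each gene's mean had been taken off. Nearest to Ccl2 among 14447 genes were Extl1, Id1 and Ppp3cc, at 0.17 to 0.24, and nearest to Ccl5 were Tubb2a-ps2, Sowahb and S100a11, at 0.15 to 0.18. Ccl4 had Nt5c3b, Traf1 and Cd63 nearest, and Cx3cr1 had Gdf10, Tubb2a and Uap1l1. For Cxcl13 the nearest were Gm7160, Anxa8 and 6430590A07Rik, at 0.22 to 0.41. Within a distance of 0.5 lay 6 genes for Cxcl13, 30 for Ccl5, 32 for Cx3cr1, 80 for Ccl2, 246 for Ccl4 and 614 for Ccl6, beside 4992 for Cxcl9 and 5486 for Cxcl16, which were nearly flat. With 4 arrays, such likeness describes these libraries only.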

How the data were processed

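Per the file headers, the authors' intensity values are Cy3 signals that Agilent Feature Extraction (version 10.7.1.1 in the headers, 9.5.1.1 in the submitters' processing notes) background-subtracted and detrended within each array, with no normalization between arrays, and probe positions are of mm9. Labels and methods name different array designs and RNA kits, and the design in the scanner files is that of the labels. A deposited matrix holds the same intensities after quantile normalization and was used as an alternative.

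Here, log2 signals were set relative to each array's 75th percentile (461, 722, 357 and 526 in Cont, Drp1LiKO, refed Cont and refed Drp1LiKO). Spots flagged as outliers were left out and repeated spots averaged. A gene was read from the probe well above background on the most arrays, then the brightest. Of 28389 RefSeq accessions, 26761 were matched to GRCm38.p6 names.

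Members, partner lists and motifs were chosen with earlier results of these data known. Named genes were the members, Dnm1l, partners and defining markers, and list genes at least 2-fold higher or lower in both feeding states, at most 4 a list. Some genes and 1 motif of the lists are not reported here. Ccl9, Ccl24, Ccl25, Ccl27a, Cxcl1, Ccr7, Adam8, Vcam1, Itgam, Gzma, Gzmb, Nkg7, Ly6g, S100a8, S100a9, Cd3d, Cd3e, Rela, Nfkbia, Adam10, Cd79a, Cd79b, Jchain, Tat, Cps1 and the other chromosome 11 neighbours were named after their values were seen. So were Spp1, Krt19, Cftr, Cd2, Cd4, Cd5, Lck, Retnlg, Csf3r and Elane. Precision is limited by 1 array per group, so an SE covers the measurement only. Alternatives were other scalings, background correction, filters, thresholds and limma settings. Reading dim signals at their bound and rescaling the marker lists were added after the data were seen. Scripts were tested on simulated data. Differences, lists and plots were made in Python 3.11.15 (numpy 2.4.6 and pandas 2.3.3, plots by matplotlib 3.10.9). The linear model was limma 3.58.1 under R 4.3.3.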

Additional observations from a re-analysis of the deposited data

Results flagged for a closer look

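Cxcl13 had genotype differences of opposite sign in the feeding states. Its genotype difference was -0.50 after fasting and 1.62 after refeeding, and its refeeding difference was -0.14 in Cont, within 1 SE of 0, and 1.98 in Drp1LiKO, so that the difference between differences was 2.12 (measurement SE 0.34) on the log2 scale. This difference was not tested, because each group has 1 array. Ccl4 differed by 0.60 on refeeding in Cont and by -0.13 in Drp1LiKO, a gap of -0.74 (measurement SE 0.33) that was not tested either, and the Drp1LiKO value alone was within 1 SE of 0. Values of Ccl4 in Drp1LiKO were above 0 in 1 of the 8 alternatives. Some of these could not change the value, because Ccl4 has 1 probe and no dim signal.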

How the results depend on the processing

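No paired analysis was possible because each group has 1 array and the labels carry no replicate numbers that could pair arrays. For the same reason no array could be left out of a pair. Of the single-gene values under all alternatives, 297 moved by less than 1 measurement SE and 17 by more, and no called member changed sign. The 297 include values that could not move. Quantile normalization and the authors' values are nearly the same alternative, because the deposited matrix is itself quantile-normalized. Requiring both signals well above background changes no difference, and the bound changes only pairs with a dim signal. A median over probes leaves genes with 1 probe as they were. The largest shifts came with normexp background correction, whose offset of 50 damps dim signals. It left 2 members at least 2-fold different after fasting (Ccl2 and Ccl5) and 3 after refeeding (Ccl5, Ccl6 and Cxcl13), with medians of 0.64 and 0.42, and turned the uncalled refed Ccr2 difference to -0.21. Under normexp the counts over all genes were 927 (358 higher and 569 lower, against 1454 and 936) after fasting, 1072 (363 and 709, against 1404 and 1105) after refeeding, 726 (439 and 287, against 735 and 958) for refeeding in Cont and 888 (501 and 387, against 1028 and 1311) for refeeding in Drp1LiKO. With both signals required well above background, they were 1039 (469 higher and 570 lower), 1109 (465 and 644), 597 and 1094. At 1.5-fold they were 5085, 5256, 3576 and 5942, and 4 members were higher on refeeding in Cont, against 10% of genes. Taking the median of a gene's probes gave 1 such member, Cx3cr1, at 2-fold. With dim signals at their bound the members' median for refeeding in Cont was 0.32, against 0.68. In limma, genes passing for genotype numbered 1 without the feeding term, 474 with an intensity trend, 1214 among genes well above background on all arrays and 498 under normexp, and members passing numbered 1 with the trend, 4 among those genes and 2 under normexp, where 0 passed as reported, and the cause was not tested. For feeding, 15 genes passed among genes well above background on all arrays. Quantile normalization and the authors' values turned the fasted hepatocyte median to 0.14 and 0.13 and fasted albumin to 0.065 and 0.065, and the refed neutrophil median, -0.0038 as reported, became 0.046 with median scaling, 0.065 with quantile normalization and 0.066 with the authors' values. Scaling to the median, quantile normalization, the authors' values and kept outlier spots left each of the counts and medians over members and over all genes within its limit.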
